A study of Mus musculus with 6 samples.

Results

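Messenger RNA of the heat shock response and of the main cytosolic and endoplasmic reticulum chaperones was measured in the hippocampus of C57BL/6 mice. The 10 genes described are Hsf1, Hsp90aa1, Hsp90ab1, Hspa8, Hspa1a, Hspa1b, Hsph1, Dnajb1, Hspb1 and Hspa5, taken by gene name out of 24935 genes in the deposited table. In the hyperoxia group, pups and their dams were kept in 85% oxygen at normal pressure from postnatal day (P) 2 to P14, and the air group was kept in room air. All mice were of the C57BL/6 strain with no genetic change named, and RNA came from the left hippocampus at P14, with 3 air-exposed and 3 hyperoxia-exposed mice and 1 library for each mouse. The comparison of the groups asks how these genes stood at the end of the exposure.

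Chaperones bind unfolded proteins and help them to fold, to assemble or to be degraded. Heat shock factor 1, encoded by Hsf1, is held inactive by HSP70 and HSP90 chaperones, and on heat or protein damage it binds heat shock elements in the promoters of inducible chaperone genes such as Hspa1a, Hspa1b, Hsph1, Dnajb1 and Hspb1. Hspa8 and Hsp90ab1 are the constitutive cytosolic forms and are abundant in neurons, whereas Hspa5 encodes BiP, the HSP70 of the endoplasmic reticulum, which the unfolded protein response controls.

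The deposited value is a normalized count, that is, the reads of a gene divided by 1 size factor per library. The libraries held 30384052 to 38746972 reads on genes. The first principal component (52.7% of the variance) parted the groups, and hyperoxia library 2 stood apart from the other libraries on the second (19.5%). Directions follow the group names of the deposited columns, whose numbers 1 to 3 are not animal numbers. No gene was targeted in these mice that could check the group names, and the sources differ on them. The mRNAs compared with the study's tables were Arc, Egr1, Fos, Atf4, Prox1, Cspg4 and the vesicular glutamate transporter Slc17a7 (VGLUT1). For each of them the study gives, in its tables, the direction opposite to that from the columns. Fos and Prox1 did not pass in either. For Arc and Egr1 its results text gives a decrease with hyperoxia, the way of the columns, while its table and discussion give an increase. The study also lists mRNA of MAL, the myelin and lymphocyte protein, as increased with hyperoxia, opposite to the oligodendrocyte markers by the columns. Its CNPase stain, a protein measure in CA1, was reduced with hyperoxia, the way of those markers by the columns. The mRNA of that protein, Cnp, did not pass (log2 fold change −0.30, limma adjusted p = 0.12). The study's GFAP stain was increased, while Gfap mRNA hardly differed (0.06, limma adjusted p = 0.73). The doubt was not settled here, and if the names of the columns were exchanged, every rise and fall given for hyperoxia would turn. In whole tissue, fewer cells of a type and less RNA per cell cannot be told apart. None of the 8 hippocampal excitatory neuron markers was at 0, and 6 of them fell in hyperoxia (summed 99962 to 105934 in air and 71307 to 84069.5 in hyperoxia). Of 8 oligodendrocyte markers 7 fell (summed 212519 to 323788 in air and 145471 to 178196 in hyperoxia), and of 6 thalamus markers 3 rose (5274.9 to 5855 in air and 7029 to 10102 in hyperoxia). Numbers that rose and fell were 3 and 2 of 8 astrocyte, 3 and 0 of 5 oligodendrocyte precursor, 2 and 0 of 8 microglia, 3 and 3 of 8 endothelial, 1 and 0 of 6 tested pericyte and smooth muscle, 1 and 1 of 7 interneuron, 1 and 1 of 5 blood and 1 and 1 of 8 choroid plexus markers. Of all genes tested 30.5% passed in either direction, and the microglia, interneuron, choroid plexus and pericyte lists were below that share. Choroid plexus markers reached a sum of 8454 in 1 hyperoxia library against 793 in another. The part of these shifts in the results that follow was not tested.

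Promoters were read because several of the genes share the heat shock element, and because the promoters of Hspa1a and Hspa1b show how alike this pair of genes is. The RefSeq table of promoters (GRCm38.p6) held 6 of the 10 genes and not Hspa8, Hsp90aa1, Hsp90ab1 or Hsf1. Each line gives the 250 bases before the start site, 5′ to 3′ on the strand of the gene, with matches in capitals. The heat shock element was searched as GAANNTTC or TTCNNGAA, each of which reads the same on both strands, and the endoplasmic reticulum stress element as CCAAT, 9 bases and CCACG, on both strands.
Hspa1a, chr17:34972157-34972406, minus strand: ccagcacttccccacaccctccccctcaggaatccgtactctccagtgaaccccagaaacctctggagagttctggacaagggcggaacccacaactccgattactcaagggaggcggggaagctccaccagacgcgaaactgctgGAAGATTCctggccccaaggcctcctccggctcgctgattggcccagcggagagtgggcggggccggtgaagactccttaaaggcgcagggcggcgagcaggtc
Hspa1b, chr17:34959239-34959488, minus strand: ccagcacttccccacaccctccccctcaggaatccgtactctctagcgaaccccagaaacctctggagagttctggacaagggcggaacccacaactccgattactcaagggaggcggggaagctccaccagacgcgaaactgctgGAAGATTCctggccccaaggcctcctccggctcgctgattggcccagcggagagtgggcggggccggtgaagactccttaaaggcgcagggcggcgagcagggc
Hspb1, chr5:135887669-135887918, plus strand: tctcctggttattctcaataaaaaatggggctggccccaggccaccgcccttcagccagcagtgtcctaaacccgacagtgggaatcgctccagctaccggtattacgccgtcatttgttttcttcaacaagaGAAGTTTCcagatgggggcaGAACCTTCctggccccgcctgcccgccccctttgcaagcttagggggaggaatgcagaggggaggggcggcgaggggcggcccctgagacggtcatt
Hsph1, chr5:149636337-149636586, minus strand: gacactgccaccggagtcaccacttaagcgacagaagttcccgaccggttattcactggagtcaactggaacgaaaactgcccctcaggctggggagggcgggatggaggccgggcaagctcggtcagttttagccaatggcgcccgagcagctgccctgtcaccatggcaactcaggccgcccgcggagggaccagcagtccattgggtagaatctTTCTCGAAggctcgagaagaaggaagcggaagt
Hspa5, chr2:34771840-34772089, plus strand: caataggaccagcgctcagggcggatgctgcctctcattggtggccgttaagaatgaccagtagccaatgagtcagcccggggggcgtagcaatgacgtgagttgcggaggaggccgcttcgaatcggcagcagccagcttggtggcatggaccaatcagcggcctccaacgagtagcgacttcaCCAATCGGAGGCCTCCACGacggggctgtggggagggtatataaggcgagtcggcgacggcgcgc

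Hspa1a and Hspa1b had the same heat shock element, GAAGATTC, beginning 104 bases before the start site, and their 250 bases were the same at 247 positions (98.8%). Hspb1 had 2 elements, beginning 117 and 97 bases before its start. Hsph1 had TTCTCGAA beginning 33 bases before the first of its 2 listed start sites. Hspa5 had no heat shock element in these bases but had the endoplasmic reticulum stress element, beginning 65 bases before its start. Neither of the 2 listed Dnajb1 windows held a match. Of 32851 promoters, 12.8% had the heat shock element and 0.113% the endoplasmic reticulum element in the bases before the start. A longer element, with 3 units of GAA and TTC in turn and 2 bases between them, was in 0.466% of promoters before the start, and of the 6 genes Hsph1 held it, past its start site in bases not printed here. A match in these letters is a description and not a shown binding site.

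By the column names, none of the 10 genes rose in hyperoxia and 3 fell, namely Hsf1, Hsph1 and Hsp90ab1. With the names exchanged, these 3 would be higher in hyperoxia and none lower. All 10 had a mean normalized count of at least 10 and were tested. The log2 fold change, hyperoxia minus air, is that of the normalized count plus 1, a scale on which changes of low counts come out too small, and a gene is said to rise or fall where its adjusted p from limma is under 0.05. Of all 17778 genes tested, 30.5% passed, 14.9% higher and 15.6% lower in hyperoxia, so 3 of 10 was close to the share of all genes. With hyperoxia library 2 left out, 5 of the 10 genes passed, Hspa1b and Hspa5 being added, and with air library 1, air library 2 or hyperoxia library 1 left out 2 passed, Hsf1 and Hsph1. In 7 of the 10 genes all 3 hyperoxia values were lower than all 3 air values (Hsf1, Hsph1, Hsp90ab1, Hspa1a, Hspa1b, Hspa5 and Hspa8), against 23.8% of all genes tested. The median log2 fold change was −0.26 for the 10 genes and −0.0072 for all genes. Together the 10 genes took 0.455% to 0.487% of the reads in the air libraries and 0.424% to 0.438% in the hyperoxia libraries.

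**Figure D1:**
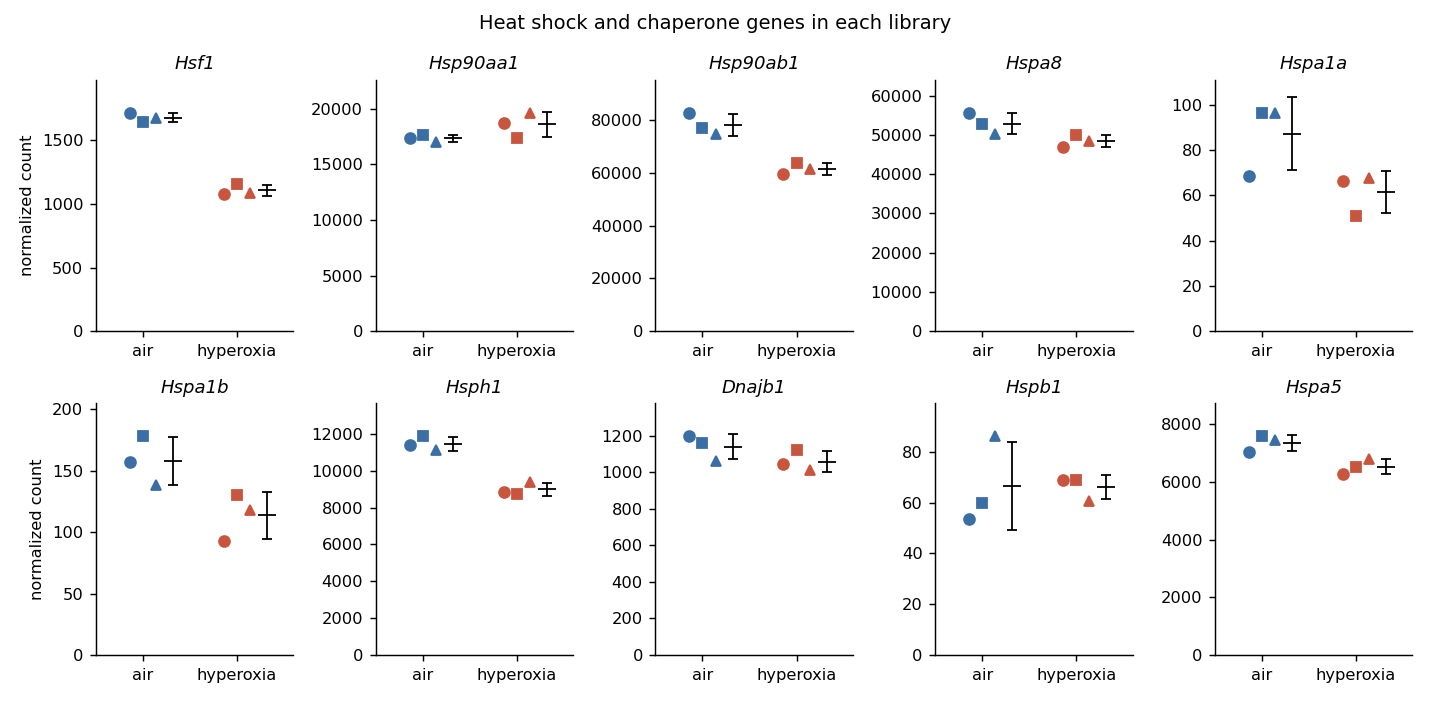
Normalized count (vertical axis, linear from 0) of each of the 10 genes in the 3 air libraries (blue) and the 3 hyperoxia libraries (red), with circle, square and triangle for libraries 1, 2 and 3 and the mean and SD in black. Hsf1, Hsph1 and Hsp90ab1 show the widest gaps between the groups relative to their spread, while Hsp90aa1, Dnajb1 and Hspb1 overlap.

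Hsf1 (ENSMUSG00000022556.9) encodes the transcription factor that induces heat shock genes, and it had the largest difference between the groups of the 10 genes, lower in hyperoxia by the column names. Its place is the plus strand of chromosome 15 from 76477422 to 76501913 (GENCODE M21, GRCm38). Its normalized counts were 1718, 1643 and 1672 in air and 1078, 1154 and 1087 in hyperoxia, given here and later in the order of libraries 1, 2 and 3. Each group was tight and the highest hyperoxia library was far below the lowest air library. Mean levels were 1678 ± 37.5 (SD, n = 3) for air and 1106 ± 41.5 (SD, n = 3) for hyperoxia, so the mean fell by 34.1%. On the log2 scale the change was −0.60 with a standard error of 0.07 (limma adjusted p = 0.00072), and Hsf1 passed under all 16 alternative settings, with values from −0.63 to −0.54.

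Among the other heat shock factors and regulators of the response (11 genes, 10 tested), Vcp rose and none fell, with a median log2 fold change of 0.0031. That 1 call was 10% of those tested, beside 30.5% of all genes. Vcp, an ATPase that extracts proteins for degradation, rose from a mean of 4853 ± 187 (SD, n = 3) to 5895 ± 196 (SD, n = 3) normalized counts (log2 fold change 0.28, standard error 0.07, limma adjusted p = 0.012). It did not pass without air library 1 (0.061) or air library 3 (0.061), the count of the list being 0 without either and 2 without hyperoxia library 2.

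The cytosolic HSP90 chaperones hold kinases, steroid receptors and other client proteins in an active form. The alpha form, Hsp90aa1, is stress inducible, and the beta form, Hsp90ab1, is constitutive. Hsp90ab1 (ENSMUSG00000023944.14, chromosome 17 from 45567775 to 45573271, minus strand) had normalized counts of 82965, 77119 and 74659.6 in air and 59497, 63795 and 61508 in hyperoxia. The groups did not overlap, and the mean fell by 21.3%, from 78248 ± 4266 (SD, n = 3) to 61599.7 ± 2151 (SD, n = 3). This was −0.34 on the log2 scale, with a standard error of 0.09 (limma adjusted p = 0.015). The call was lost under quantile normalization (−0.08, limma adjusted p = 0.40), and on leaving out air library 1 (0.072), air library 2 (0.064) or hyperoxia library 1 (0.066). Over the 16 alternatives its adjusted p ran from 0.00016 to 0.40.

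Hsp90aa1 (ENSMUSG00000021270.13, chromosome 12 from 110690605 to 110702728, minus strand) had normalized counts of 17348, 17672.5 and 16997 in air and 18758.5, 17391 and 19657 in hyperoxia. Hyperoxia libraries 1 and 3 were above every air library, and hyperoxia library 2 was within the air range. Mean levels were 17339 ± 338 (SD, n = 3) for air and 18602 ± 1141 (SD, n = 3) for hyperoxia, and the log2 fold change came to 0.10 (95% interval −0.07 to 0.27, limma adjusted p = 0.33). It was past the threshold only under quantile normalization (0.21, limma adjusted p = 0.048).

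Relative to the alpha form, the beta form of HSP90 was lower in each hyperoxia library than in each air library. Per kilobase of the longest coding transcript, Hsp90ab1 stood at 6.23, 5.68 and 5.72 for each Hsp90aa1 in air, and at 4.13, 4.78 and 4.07 in hyperoxia. Hyperoxia library 2 was the nearest to the air libraries. The log2 ratio of Hsp90aa1 over Hsp90ab1 was higher in hyperoxia by 0.44, and the exact two-sided permutation test gave p = 0.1, the smallest that 3 against 3 libraries allow. A ratio within a library does not depend on the size factor, and under quantile normalization the difference was 0.28. Of the 75-base stretches of Hsp90aa1, 53.1% recur in other transcripts, against 0.736% of Hsp90ab1, so the level of the ratio is uncertain.

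Hspa8 (ENSMUSG00000015656.17, chromosome 9 from 40800984 to 40810087, plus strand), the constitutive HSC70 that also uncoats clathrin vesicles, had normalized counts of 55672, 52638 and 50260.4 in air and 46923, 49826 and 48399 in hyperoxia. No library of 1 group was inside the other group, but the highest hyperoxia library was close to the lowest air library. Its log2 fold change of −0.13 (95% interval −0.31 to 0.06, limma adjusted p = 0.26) has an interval that spans 0, and under quantile normalization its sign turned (0.11, limma adjusted p = 0.22).

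Hspa1a and Hspa1b encode the inducible cytosolic HSP70 and lie next to each other on chromosome 17, from 34969190 to 34972156 and from 34956436 to 34959238, both on the minus strand. Hspa1a (ENSMUSG00000091971.3) had normalized counts of 68.7, 96.7 and 96.5 in air and 66.3, 50.9 and 67.6 in hyperoxia. Hspa1b (ENSMUSG00000090877.3) had 157, 178 and 139 in air and 92.8, 130.2 and 118 in hyperoxia. Both genes were at low levels, with 45 to 95 reads and 105 to 175 reads per library, and for each gene the highest hyperoxia library was lower than the lowest air library.

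Hspa1a differed by −0.49 on the log2 scale with a standard error of 0.20 (limma adjusted p = 0.089), and Hspa1b by −0.48 with a standard error of 0.16 (limma adjusted p = 0.052). Neither passed the threshold, and Hspa1a did so under none of the 16 alternatives. Hspa1b passed with the mean filter at 50 (0.049), under quantile normalization (0.034) and with hyperoxia library 2 left out (0.015), and its adjusted p ran from 0.015 to 0.19 over the alternatives. Of the 75-base stretches of the Hspa1a transcript, 52.7% are also found in Hspa1b, so the split of reads between the copies is uncertain. The sources used here do not state how reads that fit both copies were counted. If such reads were left out, the levels of both genes and of their sum would be too low.

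Summed, the pair had a normalized count of 226, 275 and 235 in air and 159, 181 and 185 in hyperoxia. The groups of the sum did not overlap. The difference was −0.48 on the log2 scale, and the exact two-sided permutation test gave p = 0.1, the smallest it can give here. Per kilobase, Hspa8 stood at 293, 229 and 256 for each inducible HSP70 transcript in air and at 353, 327 and 312 in hyperoxia. The level of this ratio is uncertain, as 68.0% of the 75-base stretches of Hspa8, 54.2% of Hspa1a and 55.8% of Hspa1b recur in other transcripts. The log2 ratio of the summed pair over Hspa8 was lower in hyperoxia by 0.35 (−0.35, exact permutation p = 0.1), and by more under quantile normalization (−0.65).

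**Figure D2:**
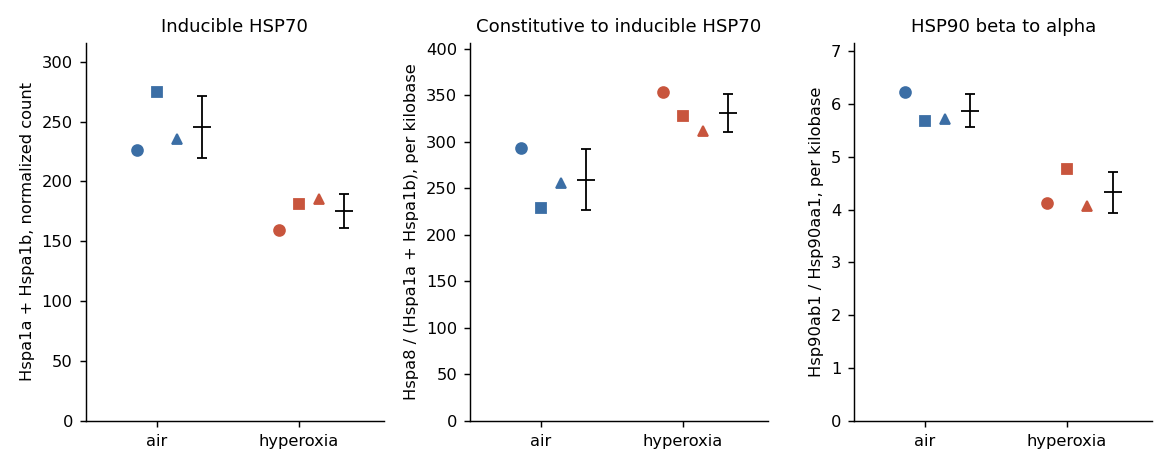
Summed normalized count of Hspa1a and Hspa1b (left), Hspa8 per kilobase for each inducible HSP70 transcript (middle) and Hsp90ab1 per kilobase for each Hsp90aa1 (right), on linear axes from 0, with 1 symbol per library (circle, square and triangle for libraries 1, 2 and 3, air in blue and hyperoxia in red) and the mean and SD in black. In each panel the 3 hyperoxia libraries lie on 1 side of the 3 air libraries.

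Hsph1 and Dnajb1 encode partners of HSP70, an exchange factor of the HSP110 family and a J-domain protein that together with HSP70 take apart protein aggregates. Hsph1 (ENSMUSG00000029657.15, chromosome 5 from 149614287 to 149636376, minus strand) had normalized counts of 11415, 11877 and 11117.5 in air and 8861, 8748 and 9412 in hyperoxia. The groups were well apart, and the mean fell by 21.5%, from 11469.9 ± 383 (SD, n = 3) to 9007 ± 355 (SD, n = 3). This came to −0.35 on the log2 scale with a standard error of 0.07 (limma adjusted p = 0.0053), and Hsph1 passed under all 16 alternatives, with values from −0.45 to −0.30.

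Dnajb1 (ENSMUSG00000005483.10, chromosome 8 from 83608193 to 83612653, plus strand) had normalized counts of 1196, 1158 and 1063 in air and 1043, 1119.7 and 1009.6 in hyperoxia. Hyperoxia library 2 was above air library 3, so the groups overlapped. A log2 fold change of −0.11 (95% interval −0.29 to 0.08, limma adjusted p = 0.34) passed under none of the 16 alternatives.

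Hspb1 (ENSMUSG00000004951.10, chromosome 5 from 135887919 to 135889563, plus strand) encodes HSP25, a small heat shock protein that holds unfolded proteins without ATP. Its normalized counts were 53.7, 60.0 and 86.2 in air and 68.9, 69.1 and 60.8 in hyperoxia, from 57 to 84 reads per library. The 3 hyperoxia libraries lay within the range of the air libraries. Its log2 fold change of 0.02 had a 95% interval of −0.44 to 0.48 (limma adjusted p = 0.95), and its sign changed with the setting. A rise or a fall of moderate size is within that interval.

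Hspa5 (ENSMUSG00000026864.13, chromosome 2 from 34771970 to 34777547, plus strand) had normalized counts of 7027, 7591 and 7450.4 in air and 6275, 6521 and 6799.9 in hyperoxia. The hyperoxia values were all lower than the air values, with means of 7356 ± 293 (SD, n = 3) and 6532 ± 262 (SD, n = 3). The log2 fold change of −0.17 (95% interval −0.33 to −0.02, limma adjusted p = 0.086) did not pass after adjustment. It did pass when hyperoxia library 2 was left out (0.049) and when length and GC content were corrected for (−0.23, limma adjusted p = 0.011), and its adjusted p ran from 0.011 to 0.27.

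**Figure D3:**
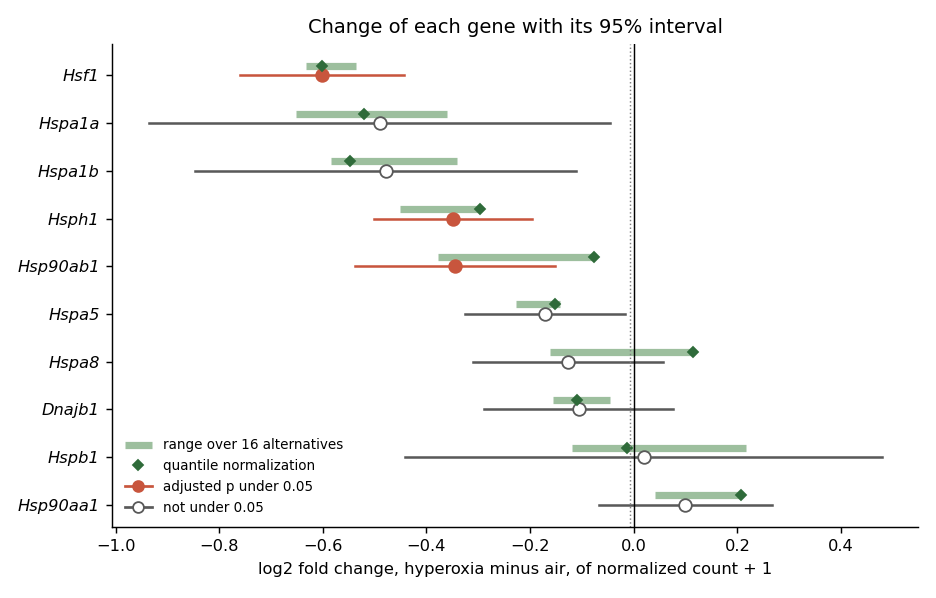
Log2 fold change (hyperoxia minus air) of each gene with its 95% interval, filled red where the limma adjusted p was under 0.05, above it a green bar for the range over the 16 alternative settings with a diamond for quantile normalization. The dotted line is the median of all genes tested (−0.0072), and the bars of Hspa8 and Hspb1 cross 0.

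The 10 genes covered a wide range of levels. Per kilobase of the longest coding transcript, the mean normalized counts in air were 31051 for Hsp90ab1, 22079 for Hspa8, 5285 for Hsp90aa1, 3017 for Hsph1, 2003 for Hspa5, 797 for Hsf1, 380.1 for Dnajb1, 71.7 for Hspb1, 56.4 for Hspa1b and 29.4 for Hspa1a. The order was the same in hyperoxia. The only neighbours whose air libraries overlapped on this scale were Hspb1 (57.7 to 92.7) and Hspa1b (49.4 to 63.5), and in hyperoxia no neighbours overlapped. Hsp90ab1 took 45.4% to 46.7% of the reads of the 10 genes in air and 41.5% to 42.9% in hyperoxia, and Hsp90aa1 took 9.77% to 10.4% in air and 11.7% to 13.3% in hyperoxia. Reads of some of these genes can also fit other gene copies. Of all 75-base stretches, 68.0% of Hspa8, 55.8% of Hspa1b, 54.2% of Hspa1a, 53.1% of Hsp90aa1 and 47.3% of Hspb1 recur in other transcripts of the annotation (such as Hsp25-ps1 for Hspb1). The share was 0.736% for Hsp90ab1, and no stretch of Hsf1, Hsph1, Dnajb1 or Hspa5 recurs.

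The rest of the chaperone system was read from 9 lists with 170 genes, of which 163 were tested. Among these 16 rose and 47 fell, 38.7% of those tested, beside 30.5% of all genes, and their median log2 fold change was −0.11. Below the 30.5% were the lists of heat shock factors and regulators (10%), small heat shock proteins (20%), mitochondrial chaperones and proteases (21.1%) and unfolded protein response genes (23.5%). Above it were the J-domain proteins (40%), endoplasmic reticulum chaperones (46.2%) and HSP90 co-chaperones (50%). The HSP70 and HSP110 family with its exchange factors (52.9%) and the cytosolic chaperonin and prefoldin (53.3%) were above it as well. The count of 63 genes became 33 without air library 1, 36 without air library 2, 40 without hyperoxia library 1 and 101 without hyperoxia library 2.

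HSP90 co-chaperones, which load clients onto HSP90 and time its cycle, fell in 12 of 24 genes and rose in none, with a median log2 fold change of −0.23. Stip1, the HOP protein that joins HSP70 to HSP90, had normalized counts of 6762, 6165 and 5736 in air and 4164, 4787 and 4084 in hyperoxia. The groups of Stip1 did not overlap (log2 fold change −0.52, standard error 0.09, limma adjusted p = 0.0030). Nudc, a co-chaperone named for its part in nuclear movement, fell from 3694 ± 110 (SD, n = 3) to 2624 ± 124 (SD, n = 3), with a log2 fold change of −0.49 (limma adjusted p = 0.0013). Both passed under all 16 alternatives. The list had 6 genes without air library 1 and 7 without air library 2 or without hyperoxia library 1, each of them lower in hyperoxia. Without hyperoxia library 2 it had 18 genes, of which 4 were higher and 14 lower.

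The other members of the HSP70 and HSP110 family and their exchange factors were split, with 4 of 17 higher and 5 lower and a median of −0.13. Hspa2, an HSP70 of testis and brain, fell from 3155 ± 99.8 (SD, n = 3) to 2281 ± 151 (SD, n = 3), a log2 fold change of −0.47 (limma adjusted p = 0.0020). Hspa1l, which lies beside Hspa1a and Hspa1b, fell from a low level of 53.7 ± 13.0 (SD, n = 3) to 24.3 ± 5.73 (SD, n = 3), a log2 fold change of −1.11 (limma adjusted p = 0.013). It overlaps a gene of the other strand over 1778 bases, and its call was lost without air library 1 (0.055) or air library 3 (0.060).

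Hspa13, a microsomal HSP70, rose from 1001.5 ± 66.4 (SD, n = 3) to 1272 ± 39.9 (SD, n = 3), with a log2 fold change of 0.35 (limma adjusted p = 0.010), a call lost without air library 1 (0.054) and under the length and GC correction (0.18, limma adjusted p = 0.071). Hspa4l, of the HSP110 family like Hsph1, rose from 3549 ± 98.4 (SD, n = 3) to 4379 ± 566 (SD, n = 3), with a log2 fold change of 0.29 (limma adjusted p = 0.043). The sign of Hspa4l turned under the length and GC correction (−0.08, limma adjusted p = 0.30), and its call held under 9 of the 16 alternatives. The list had 2 genes without air library 1, 3 without air library 3 and 4 without air library 2 or hyperoxia library 1.

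J-domain proteins, which hand substrates to HSP70, fell in 10 of 30 tested genes and rose in 2, with a median of −0.17. Dnajc7 had normalized counts of 5780.5, 5838 and 5585 in air and 3435, 3633 and 4009 in hyperoxia. Its groups were far apart (log2 fold change −0.64, limma adjusted p = 0.00074), but its exons overlap those of Cnp, a myelin gene of the other strand with more reads, over 154 bases. Dnajc28 fell from 347 ± 5.31 (SD, n = 3) to 229.6 ± 31.2 (SD, n = 3). The 2 that rose serve synaptic vesicles, Dnajc5, the cysteine string protein, from 8789 ± 132 (SD, n = 3) to 11794 ± 327 (SD, n = 3), and Dnajc6, auxilin, from 8458.5 ± 554 (SD, n = 3) to 10773 ± 839 (SD, n = 3). Their log2 fold changes were 0.42 (limma adjusted p = 0.0019) and 0.35 (limma adjusted p = 0.013), and that of Dnajc6 was lost without air library 1 (0.056), air library 2 (0.071) or hyperoxia library 1 (0.057). With hyperoxia library 2 left out, 18 genes of the list passed.

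The cytosolic chaperonin, which folds actin and tubulin, and prefoldin, which delivers them to it, had 7 of 15 genes lower and 1 higher, with a median of −0.20. Pfdn5 had the largest fall of the list, with normalized counts of 5788, 6108 and 5601 in air and 3236, 3664 and 3357 in hyperoxia (log2 fold change −0.77, limma adjusted p = 0.00034). It shares 165 bases of exon with a neighbour on its own strand. Pdcl3 fell from 825 ± 55.1 (SD, n = 3) to 589 ± 15.0 (SD, n = 3), and Vbp1, a prefoldin subunit, rose from 1298 ± 96.7 (SD, n = 3) to 1690.2 ± 70.8 (SD, n = 3). Leaving out air library 1, air library 2 or hyperoxia library 1 left 4, 3 or 5 genes.

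Of 9 small heat shock proteins 5 were tested, and Hspb11, which works in cilia as an intraflagellar transport protein, was the only one that fell. Its normalized counts were 400.2, 416 and 297 in air and 158, 219 and 211 in hyperoxia, with no overlap (log2 fold change −0.92, standard error 0.17, limma adjusted p = 0.0039). The median of the list was −0.24, and 4 genes fell without hyperoxia library 2.

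Endoplasmic reticulum chaperones changed in both directions, with 6 of 26 higher and 6 lower and a median of −0.05. Fkbp2, a prolyl isomerase, had normalized counts of 2581, 2441 and 2365 in air and 1314, 1536 and 1368 in hyperoxia (log2 fold change −0.81, limma adjusted p = 0.00040). Manf, a secreted stress-induced factor that binds BiP, fell from 1695 ± 105 (SD, n = 3) to 1169 ± 42.9 (SD, n = 3), with exon overlaps with 3 other genes. Serpinh1, the collagen chaperone HSP47, rose from 1613 ± 32.6 (SD, n = 3) to 2305 ± 350.5 (SD, n = 3), and Dnajc10, a disulfide reductase that works with BiP, rose from 1406 ± 55.2 (SD, n = 3) to 1909 ± 48.9 (SD, n = 3). These 4 genes passed under all 16 alternatives, with log2 fold changes of −0.53 for Manf, 0.50 for Serpinh1 and 0.44 for Dnajc10. Without air library 1 the list had 8 genes.

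Genes of the unfolded protein response rose in 1 and fell in 3 of 17 tested (23.5%, beside 30.5% of all genes), with a median of 0.0082. Syvn1, a ubiquitin ligase of endoplasmic reticulum degradation, fell from 2690.0 ± 195 (SD, n = 3) to 1825 ± 136 (SD, n = 3), with a log2 fold change of −0.56 (limma adjusted p = 0.0018). Atf6b, a sensor of the response, fell by 0.43 (−0.43, limma adjusted p = 0.0025), and Edem1, which directs misfolded glycoproteins to degradation, rose from 778 ± 38.1 (SD, n = 3) to 1089.9 ± 156 (SD, n = 3). The call of Edem1 was lost without air library 2 (0.054), where the list had 2 genes, against 10 without hyperoxia library 2.

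Mitochondrial chaperones and proteases rose in 1 and fell in 3 of 19 genes (21.1%, beside 30.5% of all genes), with a median of −0.06. Hspe1, the mitochondrial co-chaperonin, had a log2 fold change of −0.30 (limma adjusted p = 0.039), Dnajc15 had −0.32 (limma adjusted p = 0.023) and the disaggregase Clpb had 0.26 (limma adjusted p = 0.024). None of these 3 calls held throughout, and the list had no gene without air library 1, air library 2 or hyperoxia library 1, 1 without air library 3 and 10 without hyperoxia library 2. With all libraries kept, the list had no gene in limma without the trend, 2 under quantile normalization and 9 under the length and GC correction (3 higher and 6 lower).

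**Figure D4:**
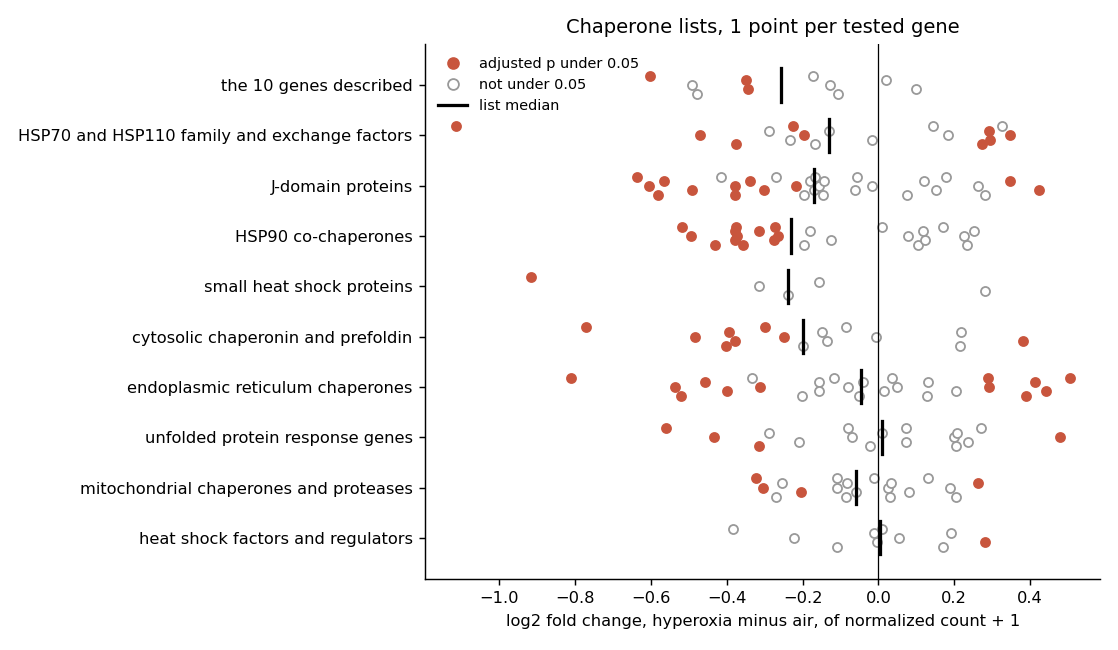
Log2 fold change (hyperoxia minus air) of each tested gene of the 9 chaperone lists and of the 10 genes described, filled red where the limma adjusted p was under 0.05, with the list median as a black bar. The red points of the HSP90 co-chaperones (12 genes) all lie below 0, while those of the endoplasmic reticulum chaperones lie 6 on each side.

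Genes induced by cooling, neuronal activity and glucocorticoids were read beside the chaperones. Rbm3, an RNA-binding protein induced by cooling, had normalized counts of 3805, 3385 and 3446 in air and 2347, 2303 and 2341 in hyperoxia, a fall without overlap (log2 fold change −0.60, limma adjusted p = 0.00072). Cirbp, also induced by cooling, had means of 1844 ± 105 (SD, n = 3) with air and 2060.2 ± 76.2 (SD, n = 3) with hyperoxia (log2 fold change 0.16, limma adjusted p = 0.13). Its groups did not overlap, hyperoxia being higher, and it passed under the length and GC correction (0.32, limma adjusted p = 0.0038). By the column names, immediate early genes of neuronal activity fell in 7 of 10 (median −0.84), and glucocorticoid response genes rose in 1 and fell in 1 of 7 (median 0.22). The calls were 70% and 28.6% of these lists, beside 30.5% of all genes tested. The part of these genes in the levels of the chaperone genes was not tested.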

How the data were processed

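The authors deposited, for each gene and library, a signal value that is a DESeq2-normalized count. Per the labels the tools were FastQC, STAR 2.5.3a, HTSeq and DESeq2, while the sources used here do not name the build, the annotation or the strand setting. Libraries were strand-specific, made from polyA RNA and read as paired 75-base ends. Divided by the value of 1 read, 100% of the deposited values came within 0.01 of a whole number, which gave back the reads (30384052 to 38746972 per library). Replicates differed by more than sampling noise (chi-square per gene 6.54 to 47.2). The second deposited table holds the authors' own comparison (mean, log2 fold change, standard error, statistic and p-values) and was not used.

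Genes with a mean of at least 10 were tested with limma 3.58.1 (R 4.3.3, mean-variance trend) on log2 of the value plus 1, with Benjamini-Hochberg adjustment over 17778 genes and a threshold of 0.05. Single sums and ratios were tested with exact permutation tests (scipy 1.17.1). The 16 alternatives were edgeR 4.0.16 and DESeq2 1.42.0 on the reads, TMM scaling, quantile normalization, no trend, a filter at 50 or none, pseudocounts of 0.5 or 5, leaving out each library, and removal of length and GC trends (mgcv 1.9.3, 17735 genes). The tests were tried on simulated counts with the same spread beyond sampling noise for every gene and library. The replicates here differed unevenly, so that trial does not show how the tests behave on these data. Positions are from GENCODE M21, which holds 99.7% of the deposited identifiers.

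The genes and lists were chosen with earlier results of these data known. Named beside the 10 genes are, from each of 9 chaperone lists, the 2 largest rises and 2 largest falls among genes past the threshold whose groups do not overlap, and Cirbp and Rbm3. Of the lists for cell types, immediate early genes and glucocorticoid response only counts, medians and sums are given.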

Additional observations from a re-analysis of the deposited data

How the results depend on the processing

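The number of the 10 genes past the threshold stayed between 3 and 4 with every setting that kept all libraries, and between 2 and 5 with 1 library left out, always lower in hyperoxia except for Hsp90aa1, which was higher under quantile normalization. The highest of these, 5, was without hyperoxia library 2, which stands apart on the second principal component. The genes behind the count changed even with all libraries kept. Under quantile normalization Hsp90ab1 was lost while Hspa1b and Hsp90aa1 came in. Hspa1b was added with the filter at 50, and Hspa5 under the length and GC correction. For the other chaperone genes the count of 63 ranged from 33 to 101 with 1 library left out and from 43 (no trend) to 67 (length and GC correction) otherwise. By list with all libraries kept, the 9 genes of the HSP70 and HSP110 family became 4 in limma without the trend and 4 under the length and GC correction, the 12 HSP90 co-chaperones became 7 without the trend, and the 1 gene of the heat shock factors became 3 under the length and GC correction. All genes past the threshold numbered 5425, against 3048 without air library 1, 7756 without hyperoxia library 2, 5501 with edgeR and 5611 with DESeq2. For the 37 genes named, 540 of 591 values kept their direction and side of the threshold. The sign turned for Hspa8 under quantile normalization (0.11), for Hspa4l under the length and GC correction (−0.083), and for Hspb1 under quantile normalization (−0.012), with edgeR (−0.0023) and on leaving out air library 1 or 2 or hyperoxia library 1 or 2, with values from −0.12 to 0.22 over all 6 libraries left out. The cause of these changes was not tested. No paired analysis was possible because the groups share no replicate numbers that stand for a common animal, litter or day. With 3 libraries a group, single outlying libraries were not tested for. Hspa1a, Hspa1b and Hspb1, at under 200 reads a library, had the fewest reads of the 10 genes, and the part of depth in their spread was not tested.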
